A study of Homo sapiens with 15 samples.

Results

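The genes described here encode the enzymes with which a cell makes fatty acids, lengthens, desaturates and activates them, and builds them into triglyceride and phospholipid, with regulators of that route and proteins of the lipid droplet. The set of 34 genes was chosen by symbol, with earlier results of these data known, and all 34 were found among the 60664 entries of the gene table. Of these 34, 33 passed the filter on low counts, among 19516 genes tested. THRSP, a small protein linked to lipid synthesis in liver, did not pass: it had 3 to 11 reads per library and a mean of 0.371 CPM (counts scaled to a common library total).

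The libraries, 3 in each of 5 groups, came from KPL4 cells, a HER2-amplified line established from a human breast cancer. In the LY500307 group, cells that had lost estrogen receptor β (ERβ, the product of ESR2) and carried exogenous ERβ spent 72 h in medium without phenol red and with 1% charcoal-treated serum, and then received 200 nM of the ERβ agonist LY500307 for 24 h. The vehicle group was the same cells in the same medium with DMSO for 24 h. The add-back group was these cells, ERβ knockout with exogenous ERβ, in maintenance medium with 7% serum, insulin and hydrocortisone. The knockout group was ERβ knockout cells, and the control group was KPL4 cells with endogenous ERβ, both in maintenance medium. The labels do not say how the gene was disrupted, whether a line was 1 clone, how ERβ was put back, whether the treatment medium held insulin, or whether the 3 libraries of a group came from separate cultures, so that p-values measure only the spread between these libraries, which may be technical.

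Fatty acid synthesis starts from cytosolic acetyl-CoA, which ACLY makes from citrate and ACSS2 from acetate. ACACA turns it into malonyl-CoA, FASN builds palmitate, elongases (ELOVL genes) and desaturases (SCD and FADS genes) reshape the chain, acyl-CoA synthetases (ACSL genes) activate it, and GPAM, AGPAT2, the lipins and the DGAT enzymes assemble triglyceride, which is stored in droplets coated by perilipins. SREBF1 encodes SREBP1, a transcription factor held in the endoplasmic reticulum membrane and released when sterols or unsaturated fatty acids run short and upon insulin signalling, and many of these genes are among its known targets. HER2-amplified breast cancer cells are known for a high level of FASN.

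Promoter windows of 300 bases (250 before to 50 after the annotated start) were available in RefSeq, build GRCh38.p14, for 29 of the 34 genes, 43 windows in all. SCD and FADS2 are shown because they had large changes in the comparisons below, and a window of ACSL1 and that of MID1IP1 because each holds both a sterol regulatory element and a CCAAT box, the binding motifs of SREBP and of its frequent partner NF-Y. Capitals mark exact matches on either strand, and each sequence is 5′ to 3′ on the strand of its gene.
SCD (chr10:100346983-100347282, plus strand): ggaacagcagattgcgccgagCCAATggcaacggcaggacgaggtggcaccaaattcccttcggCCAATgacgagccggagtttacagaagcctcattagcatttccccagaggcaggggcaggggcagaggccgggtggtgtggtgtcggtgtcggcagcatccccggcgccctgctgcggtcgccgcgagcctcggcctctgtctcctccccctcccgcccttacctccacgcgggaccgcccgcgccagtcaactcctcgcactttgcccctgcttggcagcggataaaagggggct
FADS2 (chr11:61816154-61816453, plus strand): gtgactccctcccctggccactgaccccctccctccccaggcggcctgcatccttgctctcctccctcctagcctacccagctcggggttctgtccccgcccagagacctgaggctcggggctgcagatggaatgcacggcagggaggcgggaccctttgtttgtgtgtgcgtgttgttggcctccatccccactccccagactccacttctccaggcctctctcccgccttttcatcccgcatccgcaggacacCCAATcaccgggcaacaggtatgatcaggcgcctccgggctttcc
ACSL1 (chr4:184805504-184805803, minus strand): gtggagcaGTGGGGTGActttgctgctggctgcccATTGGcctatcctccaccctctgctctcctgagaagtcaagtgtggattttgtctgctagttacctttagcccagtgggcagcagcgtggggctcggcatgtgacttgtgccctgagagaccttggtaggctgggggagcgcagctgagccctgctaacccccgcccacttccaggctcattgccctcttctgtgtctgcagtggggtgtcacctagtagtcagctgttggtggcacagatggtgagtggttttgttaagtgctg
MID1IP1 (chrX:38801209-38801508, plus strand): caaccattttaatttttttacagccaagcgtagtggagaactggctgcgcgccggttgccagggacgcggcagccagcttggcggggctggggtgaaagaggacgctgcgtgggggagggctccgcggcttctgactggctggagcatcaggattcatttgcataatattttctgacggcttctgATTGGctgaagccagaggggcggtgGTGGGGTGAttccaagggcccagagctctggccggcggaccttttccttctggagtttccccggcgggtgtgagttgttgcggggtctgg
In SCD the capitals are 2 CCAAT boxes whose first bases lie at positions -229 and -186 (position 0 is the first transcribed base), and in this FADS2 window, 1 of 2 for the gene, they are 1 CCAAT box at position 5; the other window held none of the motifs. In this ACSL1 window, 1 of 5 for the gene, the sterol regulatory element begins at -242 and the CCAAT box at -215. In MID1IP1 the sterol regulatory element begins at -40 and the CCAAT box at -65. None of the marked motifs overlap each other in these 4 windows. The sterol regulatory element (TCACNCCAC) was found in 1.13% of all 35116 windows and in 3 of the 43 windows of the lipid genes, those of ACSL1, PNPLA2 and MID1IP1. The CCAAT box (CCAAT) was found in 34.6% of all windows and in 18 of the 43. The E-box (CACGTG) was found in 7.26% of all windows and in 3 of the 43, those of ELOVL5, PLIN2 and LPIN2. The estrogen response element (GGTCA, any 3 bases, TGACC) was found in 0.057% of all windows and in 0 of the 43. A match describes the letters of a window only.

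Per kilobase of transcript, SCD, the stearoyl-CoA desaturase that makes oleate, had a level of 208 CPM per kilobase averaged over the 15 libraries. On the same scale FASN averaged 169.8 and CPT1A, the carnitine palmitoyltransferase that admits fatty acids to the mitochondrion for oxidation, at 166 CPM per kilobase. ME1, a malic enzyme that supplies NADPH, averaged 99.3 CPM per kilobase. The order at the top differed between groups: SCD was first with LY500307 (302 CPM per kilobase) and with vehicle (321), FASN in add-back (226) and knockout cells (187), and CPT1A in control cells (156). At the low end of the mean over all libraries were ACACB (1.65), DGAT2 (0.827), ACSL5 (0.374), PNPLA3 (0.331) and THRSP (0.316 CPM per kilobase). The order covers 30 of the genes, since under 80% of the counts of ACSL3, ACSL4, LPIN1 and LPIN2 lay in transcripts of known length. All levels below are CPM and are compared only within a gene.

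Depth ran from 12614050 to 19390386 counts per library, and the epithelial markers EPCAM (334 to 400.0 CPM) and KRT8 (959 to 1720 CPM) and the amplified ERBB2 (3410 to 6320 CPM) were present in all 15. Of the 6 adipocyte markers, which share the lipid programme, ADIPOQ and FABP4 were at 0 in 11 libraries and CIDEC at 0 in 14, with maxima of 0.267, 0.128 and 0.0611 CPM, while LEP, PLIN1 and LIPE ran from 0.234 to 3.55 CPM. ESR2 was at 43.8 ± 1.36 CPM with LY500307, 45.1 ± 3.23 with vehicle, 32.8 ± 1.94 in add-back cells, 4.40 ± 1.36 in knockout cells and 5.75 ± 0.866 in control cells (SD, n = 3 each). Knockout and control cells were not separated in ESR2 (log2 fold change -0.38, adjusted p = 0.0716), so the level of this gene did not check the knockout label, whereas add-back cells stood above knockout cells (2.89, adjusted p = 3.95e-14). The groups differed in a trend on GC content: the 2356 genes with a GC content of 60% or more had a median log2 deviation from their own mean of -0.062 to 0.00063 in LY500307 libraries, -0.37 to -0.16 in vehicle, 0.23 to 0.31 in add-back, 0.14 to 0.35 in knockout and -0.27 to -0.14 in control libraries. A second fit used offsets that remove each library's own trend on transcript GC content and length, and its values are given below where they change a call or move a value by over 1.5 times, and for the largest changes.

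**Figure D1:**
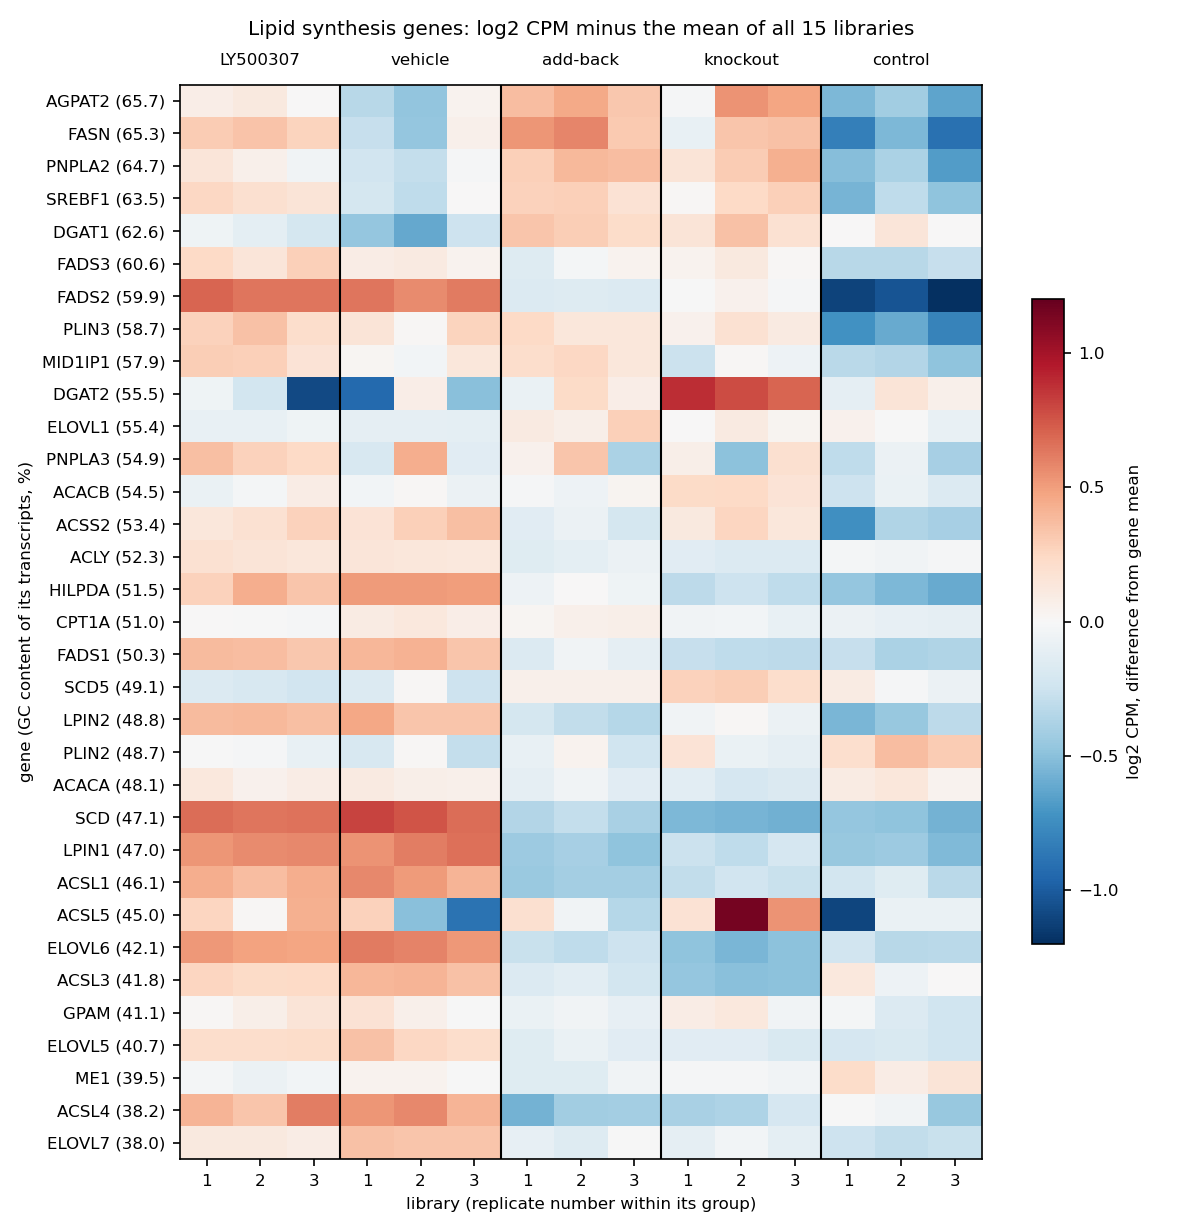
Log2 CPM of the 33 genes tested in each of the 15 libraries (columns, 3 per group), as the difference from the mean of the gene, with the colour scale ending at 1.2. Genes run down the page from the highest to the lowest GC content, given in % beside the symbol, and the genes at the top share a pattern that differs from that of SCD, LPIN1, ACSL1 and ELOVL6 further down.

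Knockout cells were set against control cells to learn what loss of ERβ changes. Most of the lipid genes were higher in knockout cells: 19 of the 33 rose, 6 fell and 8 were not called (edgeR's quasi-likelihood test, Benjamini-Hochberg adjusted p under 0.05 over all genes tested). Of all genes tested, 46.1% were called, 23.4% higher and 22.7% lower. The median log2 fold change was 0.22 over the 33 and -0.005 over all genes. All 6 genes of glycerolipid assembly rose (with offsets DGAT1 was lower), 3 of 5 desaturases rose and none fell, and the 6 genes of acetyl-CoA, NADPH and palmitate supply went 3 up and 3 down. With the offsets, 14 of the 33 rose and 7 fell, beside 42.1% of all genes called (17.7% higher and 24.4% lower), and 19 of the 25 calls kept both call and direction. In RNA from whole cultures, a change in every cell cannot be told apart from a change in the share of cells that express a gene.

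FADS2, the delta-6 desaturase at the entry to polyunsaturated fatty acid synthesis, had the lowest adjusted p of the 33 genes. It had 201, 209 and 199.8 CPM in the knockout libraries, against 93.5, 98.2 and 85.6 CPM in the control libraries. The 3 knockout values lay close together and far above every control value, a 2.20-fold rise (log2 fold change 1.14 ± 0.041, adjusted p = 4.27e-19), and the rise with offsets was 0.79. The 50 genes tested nearest to it on chromosome 11 had a median log2 fold change of 0.046. SCD had 708, 696 and 689 CPM in knockout cells and 745, 733 and 691 CPM in control cells, values that overlapped, and was not called (log2 fold change -0.052 ± 0.033, adjusted p = 0.219). SCD5, a second stearoyl-CoA desaturase, rose by 0.26 on the log2 scale, with 18.4 ± 0.587 CPM in knockout cells and 15.5 ± 0.944 CPM in control cells. FADS1, the delta-5 desaturase, stood at 85.8 ± 1.33 CPM in knockout cells and 83.3 ± 3.20 CPM in control cells (adjusted p = 0.447). FADS3 rose, at 11.4 ± 0.414 CPM in knockout and 8.80 ± 0.185 CPM in control cells, and lost its call with offsets (0.37 without and -0.010 with them). FADS2 overlaps FADS1 on the opposite strand and FEN1 (64.6 CPM) on its own, and the use of strand in counting is not given in the sources used here.

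The genes that supply acetyl units split. ACSS2 had 13.5, 15 and 13.8 CPM in knockout cells, against 7.49, 9.70 and 9.46 CPM in control cells, and rose 1.58-fold (log2 fold change 0.66 ± 0.10, adjusted p = 3.72e-06, with offsets 0.57). The lowest knockout value lay above the highest control value. ACACB, the acetyl-CoA carboxylase of the mitochondrial surface, rose by 0.37 (log2 fold change, with offsets 0.21). ACLY fell to 257 ± 3.02 CPM in knockout cells, against 282 ± 3.23 CPM in control cells, and ACACA to 201 ± 5.45 CPM, against 241 ± 7.59 CPM in control cells, with log2 fold changes of -0.13 and -0.26 (-0.21 and -0.30 with offsets) and no overlap of libraries. ME1 was lower as well, at 328 ± 3.14 CPM in knockout and 372 ± 17 CPM in control cells (log2 fold change -0.18, with offsets -0.080). FASN had 1260, 1681 and 1707 CPM in knockout cells, against 758, 921 and 719 CPM in control cells. It was 1.94-fold higher and without overlap (log2 fold change 0.95 ± 0.16, adjusted p = 0.000471), but with offsets the log2 fold change was 0.16 and the call was lost (adjusted p = 0.0809).

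Among regulators, SREBF1 had 124, 145 and 149.9 CPM in knockout cells, against 83.8, 99.96 and 88.2 CPM in control cells. Every knockout value was above every control value (log2 fold change 0.63 ± 0.092, adjusted p = 0.000132), and the offsets left 0.022 (adjusted p = 0.687). MID1IP1, which encodes a protein that promotes the polymerisation of acetyl-CoA carboxylase, had 68.4, 82.8 and 78.3 CPM in knockout cells, against 65.4, 64.2 and 58.5 CPM in control cells (log2 fold change 0.29 ± 0.063, adjusted p = 0.000669, with offsets 0.061 and not called). SREBF1 overlaps RAI1 (89.2 CPM on average) on the opposite strand.

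The elongases and acyl-CoA synthetases changed in both directions. ELOVL6, which extends palmitate to stearate, had 55.4, 53 and 54.9 CPM in knockout cells, against 66.2, 61.5 and 62 CPM in control cells, and fell (log2 fold change -0.21 ± 0.045, adjusted p = 0.000242). ELOVL7 rose by 0.19 on the log2 scale (0.30 with offsets), ELOVL1 (0.061) was not called, and ELOVL5 (0.057) was called with offsets only (0.15). ACSL3, the acyl-CoA synthetase of nascent droplets, had 149, 145 and 145 CPM in knockout cells, against 224, 197 and 206 CPM in control cells (it is given per library by a choice made after its values were seen). All 3 knockout values were lower (log2 fold change -0.51 ± 0.040, adjusted p = 1.48e-11, with offsets -0.44). The 50 genes tested nearest to ACSL3 on chromosome 2 had a median log2 fold change of -0.52, with 34 lower and 6 higher. ACSL5 had 1.28, 2.51 and 1.65 CPM in knockout cells, against 0.529, 1.07 and 1.07 CPM in control cells, with no overlap between 2 low groups (log2 fold change 0.99 ± 0.32, adjusted p = 0.0126). Its call was lost without control replicate 1 (0.74, adjusted p = 0.0814) and without knockout replicate 2 (0.71, adjusted p = 0.114), and it overlaps ZDHHC6 (54.3 CPM) on the opposite strand. ACSL1 was at 176, 184 and 179 CPM in knockout and 185, 195 and 173 CPM in control cells, and ACSL4, which prefers arachidonate, at 17.1, 17.4 and 19.5 CPM in knockout and 22.4, 21.8 and 16.3 CPM in control cells. Both overlapped between groups and neither was called.

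In glycerolipid assembly, DGAT2, which adds the last acyl chain to triglyceride, had 3.91, 3.65 and 3.42 CPM in knockout cells, against 1.97, 2.35 and 2.21 CPM in control cells (log2 fold change 0.74 ± 0.23, adjusted p = 0.0082, with offsets 0.60). LPIN2, a phosphatidate phosphatase, had 33, 34.2 and 32.1 CPM in knockout cells, against 23.1, 24.7 and 27.2 CPM in control cells (log2 fold change 0.40 ± 0.063, adjusted p = 5.82e-06, with offsets 0.36). In both genes the groups stood apart, at low levels for DGAT2. LPIN1 had 43.4, 42.1 and 45.1 CPM in knockout cells, against 37.8, 38.3 and 35.9 CPM in control cells, a small rise without overlap (log2 fold change 0.22 ± 0.053, adjusted p = 0.000771). GPAM, the mitochondrial acyltransferase that begins the route, rose by 0.20 on the log2 scale. AGPAT2, which makes phosphatidate, had 58.3, 85.5 and 81.4 CPM in knockout cells, against 40.3, 43.9 and 37.8 CPM in control cells (log2 fold change 0.89 ± 0.16, adjusted p = 0.000779). Knockout replicate 1 was the lowest of its group, though still above every control value, and with offsets the log2 fold change was 0.16. DGAT1 had 31.9, 36.5 and 32.4 CPM in knockout cells, against 28.7, 31.5 and 28.7 CPM in control cells (log2 fold change 0.18 ± 0.074, adjusted p = 0.0494), barely apart, and with offsets it was called in the opposite direction (-0.35, adjusted p = 1.52e-05). The call of DGAT1 was also lost with DESeq2, voom and RLE factors and without control replicate 1 or 3 or knockout replicate 2 or 3. DGAT1 overlaps HSF1 (120.0 CPM) on the opposite strand.

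Of the droplet genes, PLIN3, a perilipin found on small droplets, had 33.2, 36.1 and 34.4 CPM in knockout cells, against 19.4, 21 and 18.4 CPM in control cells, and rose 1.77-fold with wide separation (log2 fold change 0.82 ± 0.072, adjusted p = 1.21e-10, with offsets 0.56). PNPLA2, the triglyceride lipase ATGL, had 42.7, 47.6 and 51.8 CPM in knockout cells, against 26.9, 29.7 and 24.2 CPM in control cells (log2 fold change 0.82 ± 0.084, adjusted p = 7.06e-08), and its call was lost with offsets (0.14, adjusted p = 0.0613). PLIN2, the main droplet coat of non-fat cells, fell to 11.7 ± 1.22 CPM in knockout cells, against 14.3 ± 0.831 CPM in control cells (log2 fold change -0.30). HILPDA, an inhibitor of PNPLA2, rose to 52.9 ± 1.40 CPM in knockout cells, against 44.5 ± 2.08 CPM in control cells (0.25). CPT1A did not pass, at 788 ± 15.2 CPM in knockout and 767 ± 12.3 CPM in control cells, nor did PNPLA3, the relative of PNPLA2 known from fatty liver, at under 1 CPM. The calls of PLIN2, SCD5, GPAM and ELOVL7 were lost when single libraries were left out: PLIN2 without control replicate 2 or knockout replicate 2 or 3, SCD5 without control replicate 3, GPAM without control replicate 3 or knockout replicate 2, and ELOVL7 without knockout replicate 2. Those of PLIN2, SCD5 and ELOVL7 were also lost with DESeq2 (adjusted p = 0.057, 0.0569 and 0.0815).

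The 6 lipid genes with a GC content of 60% or more (AGPAT2, FASN, PNPLA2, SREBF1, DGAT1 and FADS3) were all higher in knockout cells (median of their log2 fold changes 0.72), and of all 2356 such genes 64.3% were higher and 2.72% lower, with a median of 0.51. With offsets, the 6 had a median of 0.079, with 1 higher and 1 lower.

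**Figure D2:**
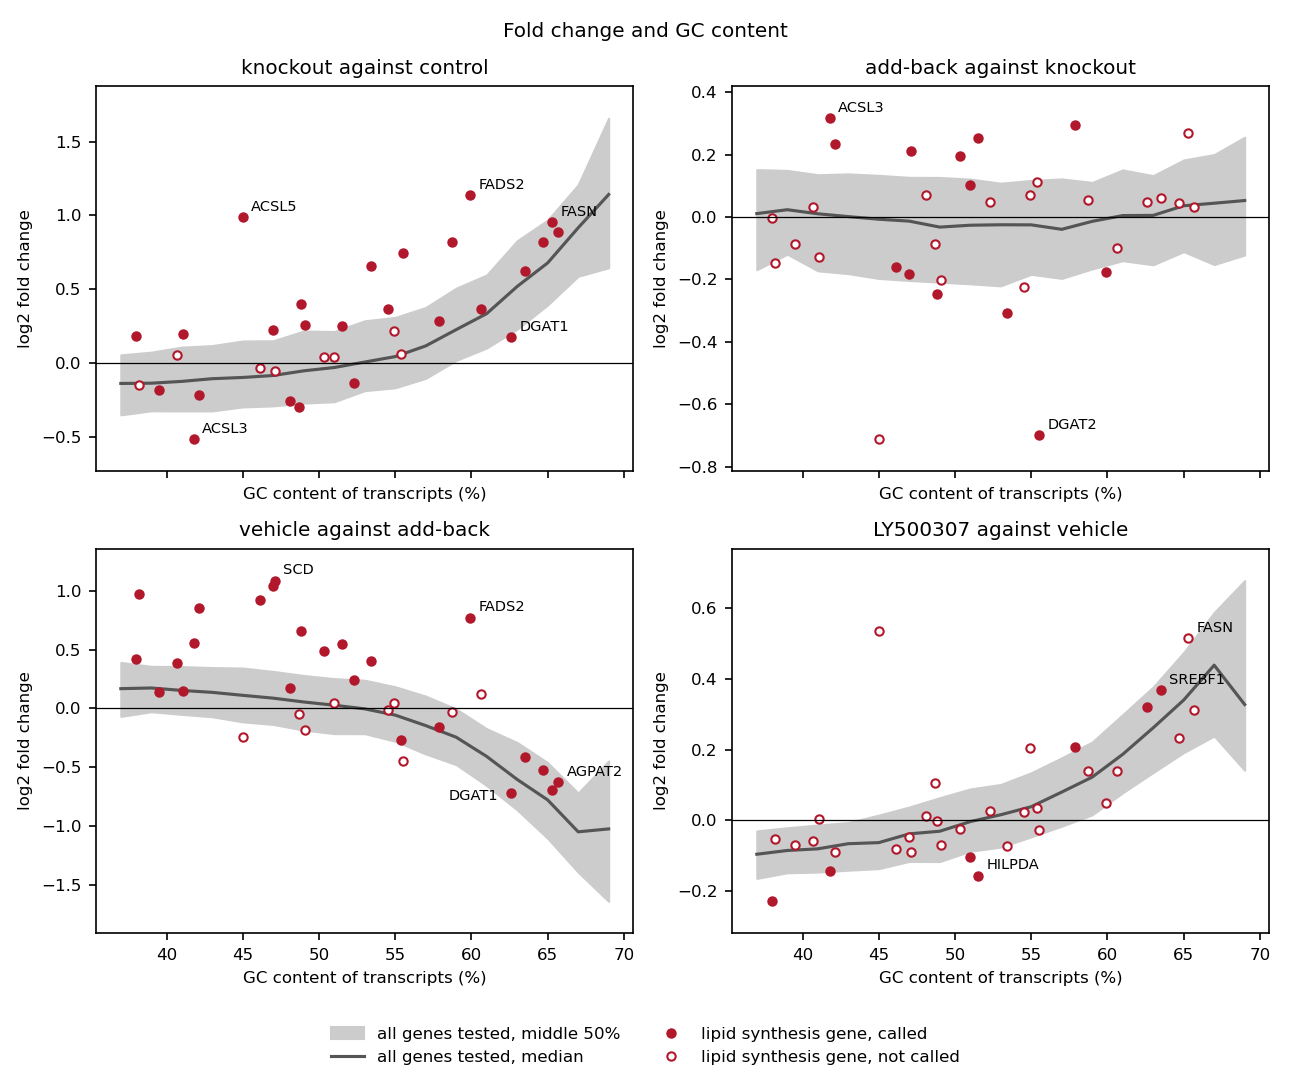
GC content of transcripts in % (horizontal axis) against log2 fold change (vertical axis) in 4 comparisons, with the 33 lipid genes as points (filled where called) over the median (line) and middle 50% (grey band) of all genes tested in bins of GC content. Against control cells the knockout change climbs with GC content and FADS2 lies above the band, and with vehicle SCD and FADS2 lie above a line that descends.

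Related genes were taken from lists of the neighbouring pathways. Among 24 regulators of SREBP and lipogenesis, 8 rose and 3 fell (7 and 7 with offsets). STARD4, a sterol carrier and SREBP target, rose most, to 4.58 ± 0.0883 CPM in knockout cells, against 1.07 ± 0.344 CPM in control cells (log2 fold change 2.07 ± 0.18, adjusted p = 1.66e-10), and MLXIPL, the glucose-responsive factor ChREBP, rose by 1.71 (1.17 with offsets). PPARG, a nuclear receptor of fat storage, fell to 57.4 ± 1.75 CPM in knockout cells, against 97.2 ± 5.82 CPM in control cells (log2 fold change -0.76 ± 0.047, adjusted p = 9.51e-14). Of 12 genes tested for fatty acid uptake and binding, 4 rose and 2 fell (1 and 4 with offsets). CD36, a fatty acid transporter, rose to 7.98 ± 1.13 CPM in knockout cells, against 0.764 ± 0.349 CPM in control cells (log2 fold change 3.41 ± 0.23, adjusted p = 4.84e-13), while FABP5, a fatty acid binding protein, fell to 3.59 ± 0.802 CPM in knockout cells, against 15.7 ± 0.618 CPM in control cells (-2.15 ± 0.14, adjusted p = 1.26e-13). Of 14 genes for citrate export and NADPH, 5 rose and 5 fell without offsets, and 1 rose and 9 fell with them, among them IDH1, the cytosolic isocitrate dehydrogenase (266 ± 3.45 CPM in knockout and 430.0 ± 11.4 CPM in control cells, log2 fold change -0.70 ± 0.034). Cholesterol synthesis went 6 up and 5 down of 20 (6 and 5 with offsets), glycerolipid and phospholipid synthesis beyond the genes above 7 up and 8 down of 24 (5 and 11), elongation and activation 8 up and 1 down of 18 (7 and 2), droplets and lipolysis 5 up and 2 down of 12 (4 and 3), and fatty acid oxidation 11 up and 5 down of 27 (7 and 5 with offsets).

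Add-back cells were set against knockout cells to see what returning ERβ changes. The genes went both ways: 7 of the 33 genes rose, 6 fell and 20 were not called, beside 20% of all genes called (10.6% higher and 9.46% lower). The genes that rose were SCD, FADS1, ELOVL6, ACSL3, MID1IP1, CPT1A and HILPDA, and those that fell were FADS2, ACSS2, ACSL1, LPIN1, LPIN2 and DGAT2. All 13 kept direction and call with offsets, which called 22.2% of all genes (10.1% higher and 12.1% lower) and, of the 33, 8 higher and 8 lower. Median log2 fold changes were 0.033 over the 33 and -0.007 over all genes.

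DGAT2 had 2.00, 2.48 and 2.23 CPM in add-back cells, against 3.91, 3.65 and 3.42 CPM in knockout cells, and all 3 add-back values were lower (log2 fold change -0.70 ± 0.22, adjusted p = 0.0242). This call was lost with DESeq2 (adjusted p = 0.0939) and when either of 2 knockout or either of 2 add-back libraries was left out (adjusted p from 0.0614 to 0.0882). ACSS2 had 11.4, 11.9 and 10.8 CPM in add-back cells, against 13.5, 15 and 13.8 CPM in knockout cells (a log2 difference of -0.31 ± 0.095, adjusted p = 0.0202), and FADS2 179.9, 181 and 179 CPM in add-back cells, against 201, 209 and 199.8 CPM in knockout cells (difference -0.18 ± 0.040, adjusted p = 0.00158). For both, the add-back libraries sat below every knockout library. LPIN1 had 38.4, 39.4 and 37.1 CPM in add-back cells, against 43.4, 42.1 and 45.1 CPM in knockout cells (difference -0.18 ± 0.052, adjusted p = 0.0103), and LPIN2 29.2, 27.6 and 26.8 CPM in add-back cells, against 33, 34.2 and 32.1 CPM in knockout cells (difference -0.25 ± 0.061, adjusted p = 0.00382). ACSL1 was at 158, 162 and 163 CPM in add-back cells, against 176, 184 and 179 CPM in knockout cells (difference -0.16 ± 0.043, adjusted p = 0.00747). The calls of ACSS2 and LPIN1 were lost with DESeq2, and those of ACSS2, LPIN1 and ACSL1 without some single libraries (ACSS2 without knockout replicate 2, add-back replicate 1 or 3; LPIN1 without replicate 3 of either group; ACSL1 without knockout replicate 2 or add-back replicate 1).

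ACSL3 rose, with 183, 188 and 176 CPM in add-back cells, against 149, 145 and 145 CPM in knockout cells, and no overlap (log2 fold change 0.32 ± 0.040, adjusted p = 7.42e-07). Here the 50 neighbours of ACSL3 had a median of 0.025. SCD had 803, 838 and 785 CPM in add-back cells, against 708, 696 and 689 CPM in knockout cells (difference 0.21 ± 0.033, adjusted p = 1.91e-05), ELOVL6 64.2, 62.6 and 65.2 CPM in add-back cells, against 55.4, 53 and 54.9 CPM in knockout cells (difference 0.23 ± 0.045, adjusted p = 0.000271), and MID1IP1 94.5, 96.9 and 90.2 CPM in add-back cells, against 68.4, 82.8 and 78.3 CPM in knockout cells (difference 0.29 ± 0.061, adjusted p = 0.00115). In each of these the 3 add-back libraries were the higher ones. FADS1 rose by 0.20, HILPDA by 0.25 and CPT1A by 0.10 on the log2 scale. The 50 genes tested nearest to HILPDA had a median log2 fold change of 0.23, with 16 higher and 0 lower. SREBF1 (149, 149.8 and 139 CPM in add-back cells), AGPAT2 (76, 80.4 and 73.6), PNPLA2 (46.9, 50.3 and 49.8), PLIN3 (37.6, 35.1 and 35.2) and DGAT1 (35.8, 35 and 33.3 CPM in add-back cells) overlapped the knockout libraries and were not called, with log2 fold changes from 0.031 to 0.061. FASN, at 1931, 2008 and 1668 CPM in add-back cells, was not called (0.27 ± 0.16, adjusted p = 0.281) but passed with offsets (0.22, adjusted p = 0.0373), as did ME1 (-0.087 without and -0.13 with them) and GPAM (-0.13 without and -0.16 with them). ACSL5, at 1.29, 1.10 and 0.893 CPM in add-back cells, and ACSL4, at 15.1, 16.8 and 17 CPM, were not called either. The split moved with the settings: 7 of the 33 rose and 9 fell with upper-quartile factors, 7 rose and 6 fell with RLE factors, and 7 rose and 3 fell with DESeq2, which changes the test as well as the scaling. In the same order, 3936, 3955 and 2973 of all 19516 genes were called, against 3907 in the main fit. Of all called genes the share higher was 52.8% with TMM factors, 41.7% with upper-quartile factors, 58.6% with RLE factors and 61.5% with DESeq2.

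Outside the set, CD36 fell to 2.88 ± 0.0215 CPM in add-back cells, against 7.98 ± 1.13 CPM in knockout cells (a log2 difference of -1.47 ± 0.17, adjusted p = 2.18e-07), and FABP5 rose to 8.09 ± 1.15 CPM in add-back cells, against 3.59 ± 0.802 CPM in knockout cells (difference 1.19 ± 0.15, adjusted p = 5.22e-07). IDH1 rose to 375 ± 7.83 CPM in add-back cells, against 266 ± 3.45 CPM in knockout cells (difference 0.50 ± 0.034, adjusted p = 3.64e-12). HSD17B11, a droplet dehydrogenase, rose by 1.28, PLIN4, a perilipin, by 0.57 and PPARG by 0.31, and STARD4 fell by 0.67 on the log2 scale. Fatty acid oxidation had 8 of 27 genes higher and 1 lower (8 and 2 with offsets), cholesterol synthesis 2 of 20 higher and 1 lower (2 and 1), the regulators 4 of 24 higher and 4 lower (5 and 5), and uptake 1 of 12 higher and 2 lower (1 and 2). Citrate export and NADPH had 2 of 14 higher and 3 lower (2 and 4 with offsets), further glycerolipid synthesis 5 of 24 higher and 5 lower (4 and 7), droplets 3 of 12 higher and 3 lower (3 and 3), and elongation and activation 0 of 18 higher and 3 lower (0 and 4).

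Add-back cells were also set against control cells, a comparison the study's design text does not name and which shares its libraries with the comparisons above. Of the 33 genes, 17 were higher in add-back cells, 7 lower and 9 not called, beside 46.0% of all genes (23.3% higher and 22.8% lower), and with offsets 11 were higher and 8 lower, beside 43.3% of all genes (16.5% higher and 26.8% lower). FADS2 was 1.95-fold above control (log2 fold change 0.96 ± 0.041, adjusted p = 3.59e-17, with offsets 0.58), and PLIN3 1.84-fold above (0.88 ± 0.070, adjusted p = 2.96e-11, with offsets 0.59). FASN was 2.34-fold above control and was also called with offsets (0.38, adjusted p = 0.000779). MID1IP1 (0.58, with offsets 0.34) and HILPDA (0.50, with offsets 0.51) were higher too. The 50 neighbours of HILPDA had a median of 0.22, with 20 higher and 1 lower. ELOVL5 (0.090, with offsets 0.15) and CPT1A (0.14, with offsets 0.080) were higher by less. DGAT2, ACSL5, LPIN1 and ELOVL6 were not called, with log2 fold changes of 0.044, 0.28, 0.040 and 0.018. ACSL3 was lower (-0.19 ± 0.040, adjusted p = 0.000182), as were ACSL1 (-0.19), ACSL4 (-0.30), ACACA (-0.19), ACLY (-0.084, with offsets -0.16), ME1 (-0.27) and PLIN2 (-0.39). The 50 neighbours of ACSL3 had a median of -0.47 here, with 34 lower and 5 higher. SREBF1 (0.69), AGPAT2 (0.92), PNPLA2 (0.87), ELOVL1 (0.17) and FADS3 (0.27) were called higher and lost the call with offsets, and DGAT1 (0.23) was called lower with offsets (-0.35). ACSL3 moved to -0.13 and kept its call without control replicate 1, ACLY was at -0.045 without add-back replicate 1 and lost its call there, without add-back replicate 2, without control replicate 1 or 3, and with DESeq2 (adjusted p = 0.0643), and ACSL4 lost its call when either of 2 control or either of 2 add-back libraries was left out. The calls of FADS3, ELOVL1 and ELOVL7 were lost without add-back replicate 3, and that of ELOVL5 without control replicate 3 or add-back replicate 2. Those of FADS3 and ELOVL7 were also lost with DESeq2 (adjusted p = 0.0862 and 0.0542).

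Vehicle cells were set against add-back cells, which differ in medium, serum, DMSO and handling. These cannot be told apart, and the design text does not name the comparison. Of the 33, 17 rose in vehicle cells, 7 fell and 9 were not called, beside 48.3% of all genes (26.6% higher and 21.7% lower). SCD, LPIN1, ACSL4, ACSL1, ELOVL6 and FADS2 rose most. With offsets 20 rose and 1 fell, beside 43.0% of all genes (28.0% higher and 15% lower), and the median log2 fold change was 0.27 over the 33 and 0.058 over all genes, against 0.14 and 0.013 without offsets.

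SCD had 1795, 1733 and 1637 CPM in vehicle cells, against 803, 838 and 785 CPM in add-back cells. Every vehicle library was far above every add-back library, a 2.13-fold rise (log2 fold change 1.09 ± 0.033, adjusted p = 7.05e-21, with offsets 1.01). FADS2 had 315, 298 and 311 CPM in vehicle cells, against 179.9, 181 and 179 CPM in add-back cells, again far apart (log2 fold change 0.77 ± 0.039, adjusted p = 7.66e-16, with offsets 1.15). FADS1 rose to 138 ± 4.34 CPM in vehicle cells, against 98.2 ± 4.28 CPM in add-back cells (difference 0.49 ± 0.041, adjusted p = 6.17e-11). The 50 genes tested nearest to SCD had a median log2 fold change of 0.066 and those nearest to FADS2 -0.070. FADS3, a member of the same family, was called only with offsets (0.12 without and 0.58 with them).

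Of 4 elongases 3 rose and 1 fell, and of 4 acyl-CoA synthetases 3 rose. ELOVL6 had 119.5, 117 and 111 CPM in vehicle cells, against 64.2, 62.6 and 65.2 CPM in add-back cells (log2 fold change 0.86 ± 0.042, adjusted p = 3.76e-16). ELOVL5, which elongates polyunsaturated chains, rose by 0.39 and ELOVL7 by 0.42, while ELOVL1, an elongase of very long saturated chains, fell by 0.27 on the log2 scale without offsets and was not called with them (-0.12). ACSL1 had 321, 307 and 286 CPM in vehicle cells, against 158, 162 and 163 CPM in add-back cells (difference 0.92 ± 0.042, adjusted p = 8.35e-17). Its 45 tested neighbours had a median of 0.28, below its own value. ACSL4 had 32.4, 33.5 and 29.8 CPM in vehicle cells, against 15.1, 16.8 and 17 CPM in add-back cells (difference 0.97 ± 0.098, adjusted p = 3.78e-08), and ACSL3 271, 272 and 262 CPM in vehicle cells, against 183, 188 and 176 CPM in add-back cells (difference 0.56 ± 0.039, adjusted p = 1.48e-12). In each of these genes every vehicle library was above every add-back library. ACSL5, at 1.37, 0.800 and 0.612 CPM in vehicle cells, overlapped the add-back libraries and was not called.

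**Figure D3:**
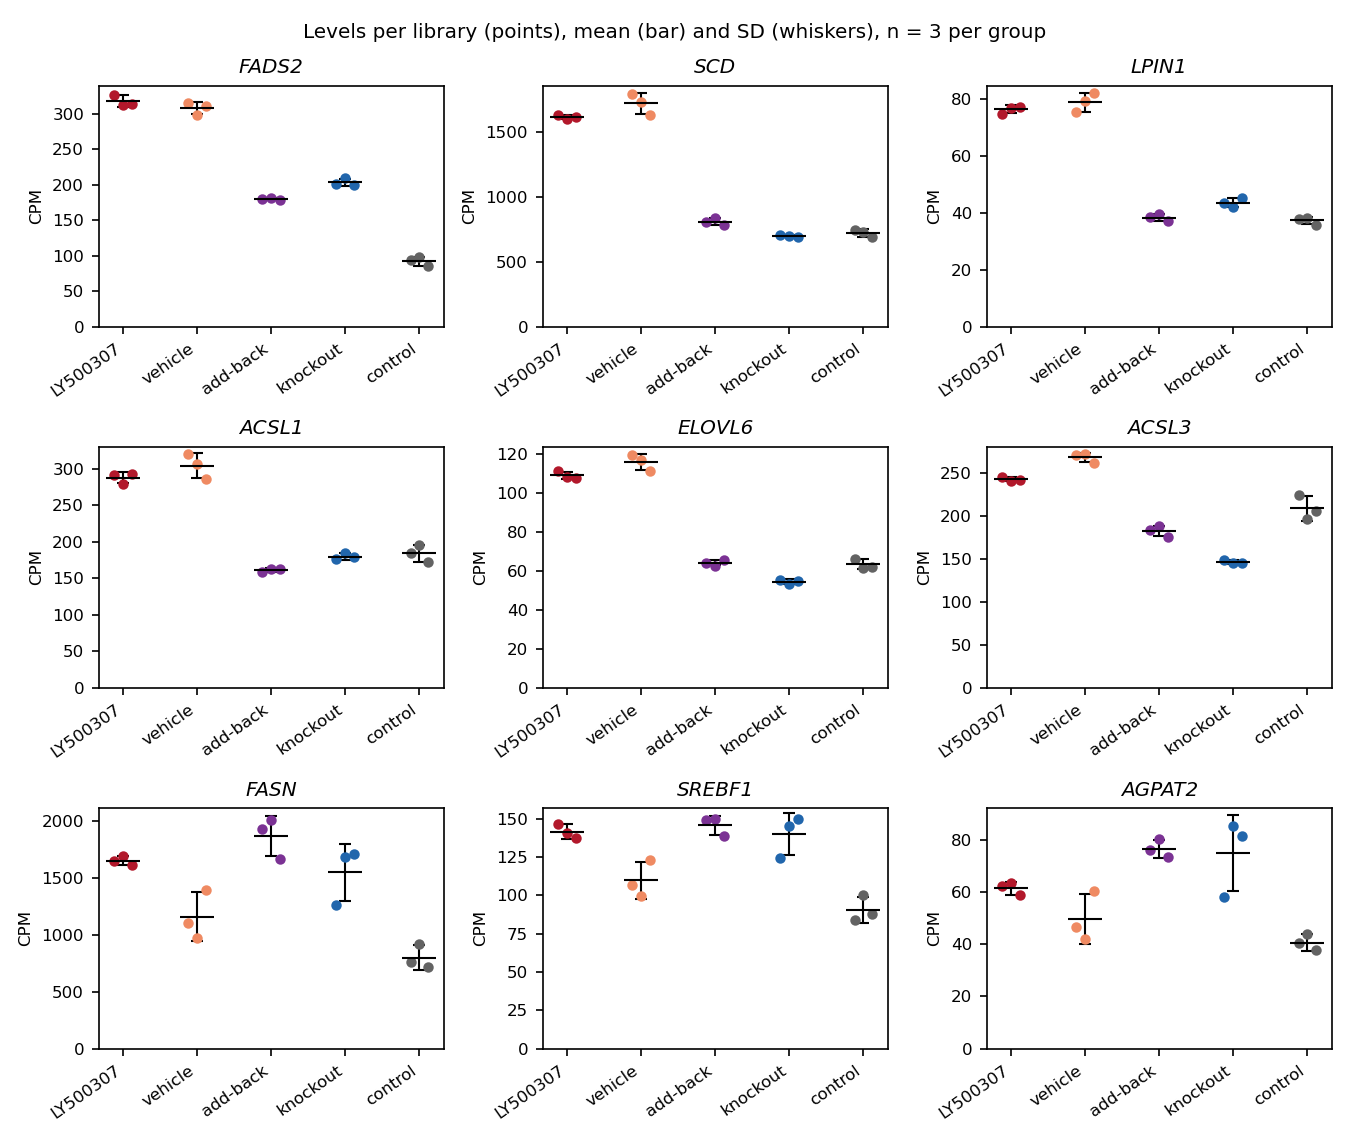
CPM per library (vertical axis, from 0) of 9 lipid genes in the 5 groups, with points for the 3 libraries, a bar for the mean and whiskers for the SD. FADS2, SCD, LPIN1, ACSL1, ELOVL6 and ACSL3 are highest in the vehicle and LY500307 libraries, whereas FASN, SREBF1 and AGPAT2 are lowest in control and lower with vehicle than in add-back cells.

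In glycerolipid assembly both lipins rose, and AGPAT2 and DGAT1 fell without offsets only. LPIN1 had 75.5, 79.2 and 82.2 CPM in vehicle cells, against 38.4, 39.4 and 37.1 CPM in add-back cells, a 2.06-fold rise (log2 fold change 1.04 ± 0.049, adjusted p = 1.20e-16). LPIN2 had 46.7, 42.6 and 42.8 CPM in vehicle cells, against 29.2, 27.6 and 26.8 CPM in add-back cells (difference 0.66 ± 0.058, adjusted p = 1.60e-10). Both pairs of groups were clear of each other. DGAT1 had 20.7, 18.7 and 24.1 CPM in vehicle cells, against 35.8, 35 and 33.3 CPM in add-back cells (difference -0.72 ± 0.075, adjusted p = 4.44e-09), lower in all 3 vehicle libraries, but not called with offsets (-0.11). AGPAT2 had 46.7, 42.2 and 60.6 CPM in vehicle cells, against 76, 80.4 and 73.6 CPM in add-back cells (difference -0.63 ± 0.15, adjusted p = 0.00524), and with offsets it was called higher (0.28, adjusted p = 4.06e-05). DGAT2, at 1.11, 2.24 and 1.5 CPM in vehicle cells, was spread widely and not called. GPAM was called by a narrow margin (0.15, adjusted p = 0.0467), which was lost in all 15 alternatives tried (0.004 with offsets), and its value without vehicle replicate 1 was 0.073.

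Of the genes for acetyl units and palmitate, ACSS2 had 14, 15.2 and 16 CPM in vehicle cells, against 11.4, 11.9 and 10.8 CPM in add-back cells (difference 0.41 ± 0.093, adjusted p = 0.000549), without overlap. ACLY rose by 0.24 and ACACA by 0.18, and ME1 by 0.14, which was not called with offsets (0.023) or without add-back replicate 1 or 2. FASN went the other way, with 1105, 973 and 1395 CPM in vehicle cells, against 1931, 2008 and 1668 CPM in add-back cells (difference -0.69 ± 0.16, adjusted p = 0.00377). SREBF1 had 107, 99.63 and 123 CPM in vehicle cells, against 149, 149.8 and 139 CPM in add-back cells (difference -0.41 ± 0.090, adjusted p = 0.00239). In both, vehicle replicate 3 was the highest of its group and the groups did not overlap. With offsets neither was lower: FASN was at 0.12 and not called (adjusted p = 0.18), and SREBF1 was called higher at 0.28 (adjusted p = 1.01e-07). PNPLA2 had 32.7, 31.6 and 38 CPM in vehicle cells, against 46.9, 50.3 and 49.8 CPM in add-back cells (difference -0.53 ± 0.079, adjusted p = 1.13e-05), and it too was called higher with offsets (0.27). MID1IP1, at 83.3, 79.9 and 89.6 CPM in vehicle cells, against 94.5, 96.9 and 90.2 CPM in add-back cells, was called lower (-0.16 ± 0.060, adjusted p = 0.0346), a call that was lost with offsets (0.085) and without add-back replicate 1 or 2 or vehicle replicate 1 or 2. HILPDA rose to 91.9 ± 0.546 CPM in vehicle cells, against 62.9 ± 1.60 CPM in add-back cells (difference 0.55 ± 0.046, adjusted p = 6.00e-11). PLIN3, at 35.5, 32.2 and 38.4 CPM in vehicle cells, and PLIN2 were not called without offsets, and PLIN3 was higher with them (0.27). SCD5 was the gene that fell with offsets (-0.20, against -0.18 and no call without them).

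Of the 6 lipid genes with a GC content of 60% or more, 5 fell and none rose, with a median of -0.58, and of all such genes 66.7% fell, also with a median of -0.58. The 50 genes nearest to AGPAT2 had a median of -0.63 and those nearest to DGAT1 -0.64, beside -0.63 for AGPAT2 and -0.72 for DGAT1 themselves. The 7 lipid genes under 45% GC content all rose, with a median of 0.42, and of all 7113 such genes 40.7% rose, with a median of 0.15. Among the 7, the transcripts that gave the GC content held only 11.1% of the counts of ACSL4 and 72.0% of those of ACSL3. Over the 33 genes the rank correlation of GC content with log2 fold change was -0.65, and over 19093 genes it was -0.40, a description only, since all genes come from the same libraries.

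**Figure D4:**
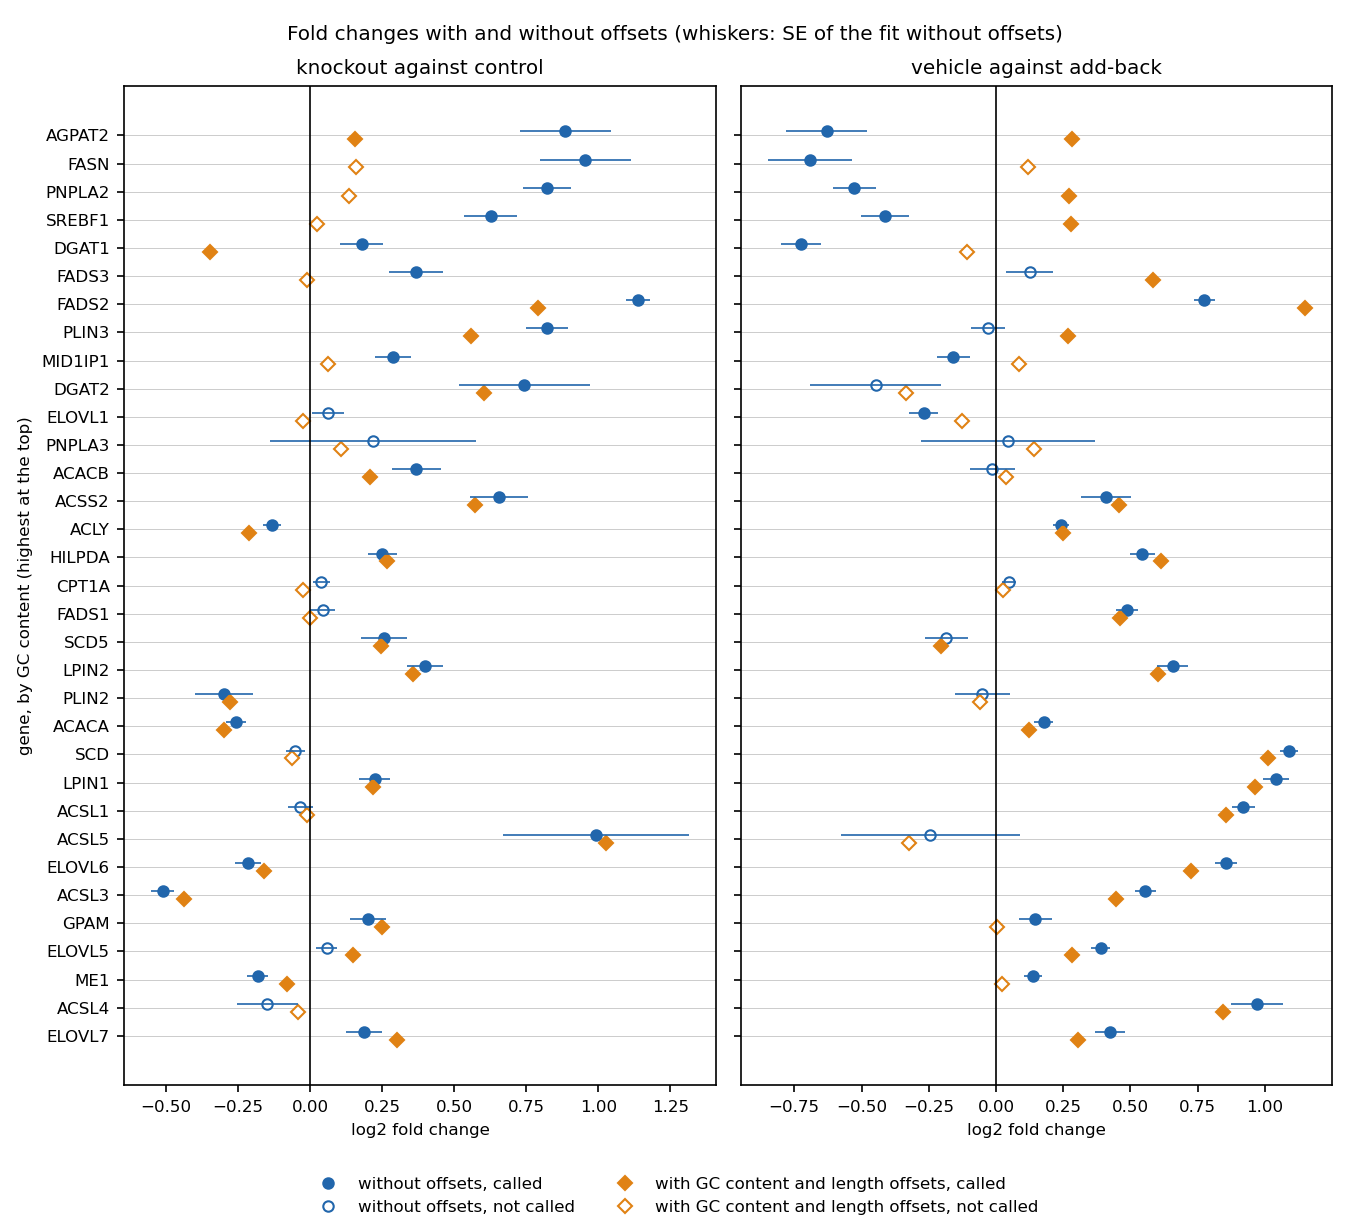
Log2 fold change of the 33 genes (horizontal axis) for knockout against control cells and for vehicle against add-back cells, without (circles, whiskers show the SE) and with (diamonds) the GC content and length offsets, filled where called. In the vehicle comparison AGPAT2, PNPLA2 and SREBF1 cross from below 0 to above it, whereas SCD, LPIN1, ACSL1, ACSL4, ELOVL6 and FADS2 stay above 0.

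Related lists were read in vehicle cells as well. Of 20 cholesterol synthesis genes, 17 rose and 1 fell, with a median of 0.44 (19 and 0 with offsets). HMGCS1, which commits acetyl units to sterols, rose to 148 ± 6.48 CPM in vehicle cells, against 70 ± 3.84 CPM in add-back cells (log2 fold change 1.08 ± 0.042, adjusted p = 2.14e-18), and SQLE, squalene epoxidase, by 0.84, while TM7SF2, a sterol reductase, fell by 0.31 on the log2 scale and was called higher with offsets (0.25). STARD4 rose to 16.8 ± 0.419 CPM in vehicle cells, against 2.89 ± 0.218 CPM in add-back cells (difference 2.54 ± 0.12, adjusted p = 8.35e-17). PPARGC1A, a coactivator of oxidative genes, rose by 1.05, and among the 24 regulators 6 rose and 10 fell, or 9 and 3 with offsets. Of 27 fatty acid oxidation genes 15 rose and 5 fell (16 and 2 with offsets), among them ECI2 (0.87) and ECI1 (-0.77, not called with offsets), both enoyl-CoA isomerases. Of 12 uptake genes 7 rose and 3 fell (8 and 0 with offsets), led by LIPG, an endothelial lipase (1.88), and CD36 (0.71). Citrate export and NADPH had 8 of 14 higher and 3 lower (10 and 0 with offsets), elongation and activation 7 of 18 higher and 4 lower (7 and 2), further glycerolipid synthesis 9 of 24 higher and 7 lower (8 and 7), and droplets and lipolysis 4 of 12 higher and 4 lower (6 and 2 with offsets).

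LY500307 was set against vehicle to see what the ERβ agonist changes in cells with exogenous ERβ. The changes were small: 3 of the 33 rose (SREBF1, DGAT1 and MID1IP1), 4 fell (ELOVL7, ACSL3, CPT1A and HILPDA) and 26 were not called, beside 7.37% of all genes (4.72% higher and 2.65% lower). The median log2 fold change was 0.005 over the 33 and -0.018 over all genes. With offsets only CPT1A and HILPDA were called, both lower, beside 1.60% of all genes (0.784% higher and 0.815% lower).

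SREBF1 had 147, 141 and 137 CPM with LY500307, against 107, 99.63 and 123 CPM with vehicle (log2 fold change 0.37 ± 0.090, adjusted p = 0.0314, with offsets 0.083 and not called). DGAT1 had 27.5, 26.4 and 24.7 CPM with LY500307, against 20.7, 18.7 and 24.1 CPM with vehicle (0.32 ± 0.078, adjusted p = 0.0113, with offsets 0.062), and MID1IP1 100.2, 99.57 and 91.8 CPM with LY500307, against 83.3, 79.9 and 89.6 CPM with vehicle (0.21 ± 0.060, adjusted p = 0.0373, with offsets 0.10). In all 3 genes vehicle replicate 3 was the vehicle library nearest to the LY500307 libraries. FASN had 1651, 1693 and 1616 CPM with LY500307, against 1105, 973 and 1395 CPM with vehicle, all higher, but was not called (0.52 ± 0.16, adjusted p = 0.08). Of all genes with a GC content of 60% or more, 22.8% were higher and 0.0% lower in this comparison, with a median of 0.25, and the 6 lipid genes of that class had a median of 0.32.

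The genes that fell did so by small steps. HILPDA had 78.4, 87.6 and 81.6 CPM with LY500307, against 92.1, 92.3 and 91.3 CPM with vehicle (log2 fold change -0.16 ± 0.045, adjusted p = 0.0312, with offsets -0.18, adjusted p = 0.0211). CPT1A had 822, 816 and 807 CPM with LY500307, against 873, 892 and 863 CPM with vehicle (-0.10 ± 0.027, adjusted p = 0.0201, with offsets -0.12, adjusted p = 0.0117). ACSL3, with 246, 241 and 242 CPM under LY500307 (-0.14 ± 0.039, adjusted p = 0.0221), and ELOVL7, with 29.6 ± 0.354 CPM under LY500307 and 34.8 ± 0.348 CPM with vehicle (-0.23 ± 0.055, adjusted p = 0.0103), lost their calls with offsets. When each of the 6 libraries was left out in turn, SREBF1, ELOVL7, ACSL3, CPT1A and HILPDA lost their calls in 5 of 6 fits, and DGAT1 and MID1IP1 in 4. Without a filter on low counts, HILPDA (adjusted p = 0.119), CPT1A (adjusted p = 0.296) and ACSL3 (adjusted p = 0.0735) lost theirs as well. With only the 6 libraries compared, SREBF1 (adjusted p = 0.0502) and CPT1A (adjusted p = 0.059) lost theirs. HILPDA lost its call with a filter of 1 CPM in 3 libraries (adjusted p = 0.0531), and MID1IP1 with the replicate block (adjusted p = 0.0547). In the 4 genes that fell the 2 groups did not overlap. The same held for the 3 that rose, and for 3 higher and 3 lower genes that were not called. The share of all genes without overlap was not counted. The count of calls rested on single libraries: 0 of the 33 were called without vehicle replicate 1, without vehicle replicate 2 or without LY500307 replicate 1 (11, 9 and 11 at an unadjusted p under 0.05), 1 without LY500307 replicate 2, 2 without LY500307 replicate 3 and 10 without vehicle replicate 3. In the same order, the fits called 475 of 19928, 434 of 19939, 599 of 19928, 531 of 19924, 1101 of 19925 and 1962 of 20082 genes tested. The fit with all libraries called 1439 of 19516.

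Genes that rose in vehicle cells against add-back cells were not called under the agonist, except ELOVL7, ACSL3 and HILPDA. SCD had 1636, 1603 and 1614 CPM with LY500307 (log2 fold change against vehicle -0.090 ± 0.033, adjusted p = 0.0975), FADS2 327, 313 and 314 CPM (0.048 ± 0.038, adjusted p = 0.522) and LPIN1 74.7, 77 and 77.3 CPM (-0.048 ± 0.046, adjusted p = 0.607). ELOVL6 had 111, 108 and 108 CPM with LY500307 (-0.088), ACSL1 292, 279 and 292 CPM (-0.081), ACSL4 29.7, 28.3 and 34.4 CPM (-0.053), LPIN2 44.1, 44.2 and 43.5 CPM (-0.003) and ACSS2 13.7, 14.2 and 15.1 CPM (-0.073), and none of these was called. AGPAT2 with 62.2, 63.5 and 58.8 CPM, PNPLA2 with 42.5, 40 and 37.3 CPM, PLIN3 with 38.6, 40.9 and 37 CPM, DGAT2 with 2.03, 1.81 and 0.996 CPM and ACSL5 with 1.36, 1.15 and 1.52 CPM under LY500307 were not called either. Of the related lists, cholesterol synthesis had 1 of 20 higher and 3 lower (0 and 1 with offsets), fatty acid oxidation 1 of 27 higher and 4 lower (0 and 1), citrate export and NADPH 2 of 14 higher and 1 lower (0 and 1), and further glycerolipid synthesis 3 of 24 higher and 0 lower (1 and 0). The regulators had 0 of 24 higher and 1 lower with and without offsets, and elongation and activation, droplets and uptake had 1 gene higher and 0 lower each, none of them with offsets.

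Across the 5 comparisons, ACSL3, MID1IP1 and HILPDA were called in every one, SREBF1, ACSS2, FADS2, ELOVL7 and DGAT1 in 4, and PNPLA3 in none. Of these calls, ACSS2 and FADS2 kept 4 of 4 with offsets in the same direction, ACSL3 4 of 5, ELOVL7 3 of 4, MID1IP1 2 of 5, and SREBF1 and DGAT1 0 of 4. HILPDA was called with and without offsets in all 5, with means of 82.5 ± 4.65 CPM with LY500307, 91.9 ± 0.546 with vehicle, 62.9 ± 1.60 in add-back, 52.9 ± 1.40 in knockout and 44.5 ± 2.08 CPM in control cells. The HILPDA call for LY500307 against vehicle was lost in 5 of the 6 fits that left out 1 library. The 5 comparisons share libraries, so repeated calls of a gene are not independent. From 7.37% (LY500307 against vehicle) to 48.3% (vehicle against add-back) of all genes were called in a comparison. How many of all genes were called as often was not counted.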

How the data were processed

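Libraries of KPL4 RNA were processed with FastQC, Trim Galore, GSNAP and RSEM against GRCh38, per the submitters' processing notes. The deposited values are expected counts of genes and of transcripts, estimated by the authors for 15 libraries, and were rounded to whole numbers here. The annotation release and the use of strand in counting are not given in the sources used here. With R 4.3.3 and edgeR 4.0.16, genes were filtered with filterByExpr, scaled by TMM and fitted with a mean for each of 5 groups over all 15 libraries, and quasi-likelihood tests were adjusted by Benjamini-Hochberg over 19516 genes. A gene was called at an adjusted p under 0.05. CPM values use the TMM library sizes. GC content and length came from GENCODE 29, and offsets were smooth fits per library (mgcv 1.9.3). GENCODE 29 transcripts held 11.1% of the counts of ACSL4, 13.1% of LPIN2, 66.9% of LPIN1 and 72.0% of ACSL3. For SREBF1 the share was 81.5%, and the part outside differed between groups (a mean of 3.2% in control and 21.8% in knockout cells). The GC content and offsets of all these genes rest on the GENCODE 29 part alone. Alternatives were DESeq2 1.42.0, limma 3.58.1 (voom), RLE and upper-quartile factors, a filter of 1 CPM in 3 libraries, no filter, only the 6 libraries compared, the replicate block and leaving out each library. The fits were tested on simulated data.

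Values in every library were given for SREBF1, FASN, SCD and each gene called with a log2 fold change of at least 0.58 in size at a mean of at least 1 CPM; ACSL3 and, for LY500307, HILPDA and CPT1A were added after their values were seen. From each related list, the 2 called genes with the largest changes in each direction, at a mean of at least 1 CPM, could be named. Neighbours were the 25 tested genes on each side. The genes and lists were chosen with earlier results of these data known. Numbers were not used to pair libraries, since the labels do not say that a replicate number marks a shared culture. Same-numbered replicates of different groups did not deviate together (correlations of -0.0952 to 0.0603 over 30 pairs). Differently numbered ones had correlations of -0.0699 to 0.0976 over 60 pairs. Counts give a biological coefficient of variation of 4.99%, and any spread covers these libraries only. The result of 1 gene of a related list is not reported here.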

Additional observations from a re-analysis of the deposited data

How the results depend on the processing

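Of 93 results for lipid genes called, 82 kept direction and call with DESeq2, 91 with voom, 91 with upper-quartile factors, 90 with RLE factors, 90 with the CPM filter, 88 without a filter and 89 with the 6 libraries alone; the others kept direction only. With the replicate block 89 kept the call, and 24, 13, 23, 23 and 6 lipid genes were called for knockout against control, add-back against knockout, add-back against control, vehicle cells against add-back cells and LY500307 against vehicle. Of all 19516 genes tested, 8820, 3693, 8779, 9214 and 1260 were called there, in the same order. With the offsets 67 kept the call, 17 lost it and 9 changed sign, namely FADS3 (-0.0099) and DGAT1 (-0.35) for knockout against control, FADS3 (-0.15) and DGAT1 (-0.35) for add-back against control, and SREBF1 (0.28), FASN (0.12), AGPAT2 (0.28), MID1IP1 (0.085) and PNPLA2 (0.27) for vehicle against add-back. For LY500307 against vehicle, 2 lipid genes were called with offsets and 0 to 10 when 1 library was left out. Of all genes tested, 312 were called with offsets and 434 to 1962 when 1 library was left out. The cause of these changes was not tested. Genes at a few CPM, such as ACSL5, DGAT2 and PNPLA3, are limited by depth.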

Other observations

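Transcript shares within a gene were read from the deposited transcript table and were not tested. Transcripts of SREBF1 outside GENCODE 29 held 21.1 ± 1.88% of the gene's counts with LY500307, 17.6 ± 2.72% with vehicle, 22.5 ± 1.44% in add-back cells, 21.8 ± 4.58% in knockout cells and 3.2 ± 2.98% in control cells (SD, n = 3 each), and the control libraries did not overlap the others. FASN-206, a protein-coding transcript, held 8.5 ± 0.803% with LY500307, 7.3 ± 1.14% with vehicle, 15.6 ± 1.18% in add-back cells, 16.1 ± 2.78% in knockout cells and 8.6 ± 3.34% in control cells. RSEM divides reads between transcripts that share sequence. Shares were also taken per kilobase, only for genes with all counts in GENCODE 29 transcripts, which leaves out SREBF1. Of these 65 shares, 48 were not within the spread between libraries. The 48 may include shares with no spread and no change, such as that of the only SCD transcript, so they do not count shares that moved.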
